A study of Homo sapiens with 6 samples.

Results

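The genes described are those of the translation initiation and elongation factors of human cells, taken as every gene of the deposited table whose symbol begins with EIF1 to EIF6 or with EEF1 or EEF2, the eIF2 kinases (EIF2AK) being left out. The rule used names only and found 58 of 17990 genes. Of these, 57 averaged 20 counts or more per library and are called measured, among 11916 measured genes in all. EIF5A2 lay nearest above that limit with a mean of 68.0 counts, and EIF1AY, a near-identical copy of EIF1AX, was the 1 member below it with 5.17. The series sampled LNCaP, a human prostate cancer line that responds to androgen, with 1 RNA sequencing library each after 3, 6, 12, 24 and 48 h with 10 nM dihydrotestosterone (DHT, a potent androgen) and 1 library of non-treated cells at 0 h. All cells had first been kept in phenol red-free medium with charcoal-stripped serum, which is low in hormones, and the series asks which RNAs respond to androgen. Each time is 1 library of 1 cell line. No later non-treated library is used here, so DHT and time in culture cannot be told apart. There was also no replicate error to hold a difference against, and p-values were left out. A level is a count scaled so that the listed counts of a library sum to 1000000 (CPM), with no scaling to transcript length. A change is log2 of (CPM + 1) at a time with DHT over (CPM + 1) at 0 h. A gene is called higher or lower when its change is at least 2-fold, and "rose" and "fell" are used only of such genes. Intervals are exact 95% intervals of counting error. All the times are set against the same 0 h library, so an error in that library would move every one of them.

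Initiation factors bring the first transfer RNA, the small ribosomal subunit and the capped end of a messenger RNA together. The eIF4 proteins recognise the cap and unwind the leader, eIF2 delivers the initiator transfer RNA in its GTP form, which eIF2B regenerates, eIF3 is the large scaffold on the small subunit, and eIF5 and eIF5B act at start codon selection and subunit joining. Elongation then runs on the eEF1 complex, which brings each aminoacyl transfer RNA and recycles its own GTP, and on eEF2, which moves the ribosome along. Many messages of elongation factors, ribosomal proteins and some eIF3 subunits begin with a C and an unbroken run of pyrimidines, the 5′ terminal oligopyrimidine or TOP motif, through which the mTOR kinase and the protein LARP1 control their translation and storage.

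The transcript starts below are shown because the members that hold such a run were mostly below 0 h at 48 h, as set out after the single genes. Each line gives the last 10 bases before the annotated start and the first 20 of the transcript, 5′ to 3′ on the strand of the gene, from RefSeq on GRCh38.p14. The capitals mark an unbroken run of pyrimidines that begins with C at the annotated start and holds at least 4 more. The counts rest on another build, hg19, so these positions belong to the sequences and not to the counts. The first 11 members hold such a run and the last 5 do not. For EEF1B2, which has 2 listed starts, the start with the run is shown.
EEF2 (chr19:3985444-3985473, minus strand): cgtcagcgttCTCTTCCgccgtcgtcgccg
EEF1A1 (chr6:73521013-73521042, minus strand): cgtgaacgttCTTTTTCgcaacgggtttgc
EEF1B2 (chr2:206159885-206159914, plus strand): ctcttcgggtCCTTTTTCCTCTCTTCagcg
EIF2A (chr3:150546777-150546806, plus strand): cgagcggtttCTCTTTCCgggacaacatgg
EIF2S3 (chrX:24054946-24054975, plus strand): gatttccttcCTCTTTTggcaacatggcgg
EIF3D (chr22:36529147-36529176, minus strand): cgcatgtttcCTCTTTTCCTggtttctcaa
EIF3F (chr11:7987327-7987356, plus strand): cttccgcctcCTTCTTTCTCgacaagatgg
EIF3K (chr19:38619178-38619207, plus strand): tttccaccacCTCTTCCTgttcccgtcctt
EIF3M (chr11:32583821-32583850, plus strand): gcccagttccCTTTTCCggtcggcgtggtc
EIF4A2 (chr3:186783567-186783596, plus strand): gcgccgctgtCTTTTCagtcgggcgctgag
EIF4B (chr12:53006446-53006475, plus strand): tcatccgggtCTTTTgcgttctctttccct
EEF1G (chr11:62573872-62573901, minus strand): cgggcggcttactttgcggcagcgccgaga
EEF1E1 (chr6:8102529-8102558, minus strand): tgcaggtctcgcgtctgccaggagctacgg
EIF3J (chr15:44537137-44537166, plus strand): ccgccgtgctaactcctcgctagctctccc
EIF4A1 (chr17:7572815-7572844, plus strand): ggcactccgccctagtttctaaggatcatg
EIF5B (chr2:99337379-99337408, plus strand): ctgagaactcacaccatatgtgtcctgttc

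The libraries held 13179917 to 20587956 counts over the listed transcripts. All 10 luminal prostate markers were present in each library, with a summed level of 23866 CPM at 48 h, against 9038 at 0 h. The 4 basal and 5 leukocyte markers summed to at most 0.969 and 0.660 CPM in any library. The 6 fibroblast markers summed to 37.1 CPM at 48 h, against 67.6 at 0 h, nearly all of it COL1A1, while COL1A2 was at 0 in both. The 3 endothelium markers summed to 9.44 CPM at 48 h, against 15.1 at 0 h, nearly all of it VWF. The part of other cells in the results was not tested. The androgen target FKBP5 had 2286 CPM at 24 h, against 59.0 at 0 h. At 12 h the genes of chromosome 4 and of distal chromosome 15 kept a median of 10.4% and 8.04% of their mean level at 6 and 24 h, against 104% elsewhere, and their 12 h values are not used. Among the members this touches EIF4E alone. From 6 h on, changes over all measured genes with a GC value followed the GC content of the transcript (r of -0.74 at 6 h and -0.56 at 48 h, across genes, which are not replicates), so changes are in most cases also given after subtracting that trend. The subtraction turned the sign of 13 of 57 members at 3 h, 20 of 57 at 6 h, 12 of 56 at 12 h, 9 of 57 at 24 h and 12 of 57 at 48 h.

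At 3 h no member was 2-fold higher and none was 2-fold lower, beside 0.747% and 0.864% of all measured genes in those directions. At 6 h, 6 of 57 members rose and 1 fell, beside 15.3% and 3.01% of all measured genes. At 12 h the counts were 6 and 2 of 56, beside 11.6% and 3.86% of the 11070 genes of known chromosome outside the affected regions. At 24 h, 4 members rose and 3 fell, beside 10.5% and 10.8%. At 48 h, 6 rose and 8 fell, 10.5% and 14% of the members, beside 15% and 7.33% of all measured genes. The shares called are thus near or below those of all genes except for the fall at 48 h. The median change of the members was -0.05, -0.04, -0.01, -0.20 and -0.32 at 3, 6, 12, 24 and 48 h, beside -0.08, 0.08, 0.08, -0.09 and -0.06 over all measured genes.

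With the GC trend subtracted, 0 members were past 2-fold at 3, 6 and 12 h, beside 0.943%, 3.80% and 4.15% of all genes of known GC in the higher direction and 0.431%, 1.56% and 3.00% in the lower. At 24 h, 2 members were higher and 1 lower on that scale (7.09% and 6.58% of genes), and at 48 h 1 was higher and 3 lower (7.15% and 4.82% of genes). At a threshold of 1.5-fold and without subtraction, 0 members were higher and 3 lower at 3 h (2.52% and 8.13% of all genes), 13 and 7 at 6 h (28.5% and 13.4%), 10 and 5 at 12 h (25.9% and 13.4%), and 11 and 14 at 24 h (21.6% and 24.2%). At 48 h, 11 were higher and 20 lower, 19.3% and 35.1% of the members beside 25.4% and 22.0% of all genes. With the trend subtracted the counts at 1.5-fold were 0 and 2 at 3 h (3.36% and 3.50% of genes), 2 and 4 at 6 h (10.8% and 7.71%), 4 and 6 at 12 h (11.4% and 10.3%), and 7 and 12 at 24 h (16.5% and 16.0%). At 48 h they were 3 and 19, 5.26% and 33.3% of the members beside 16.4% and 14.6% of genes. Lower was the more frequent direction at 48 h on both scales and at both thresholds. At 2-fold, some other settings given at the end yielded equal counts.

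**Figure D1:**
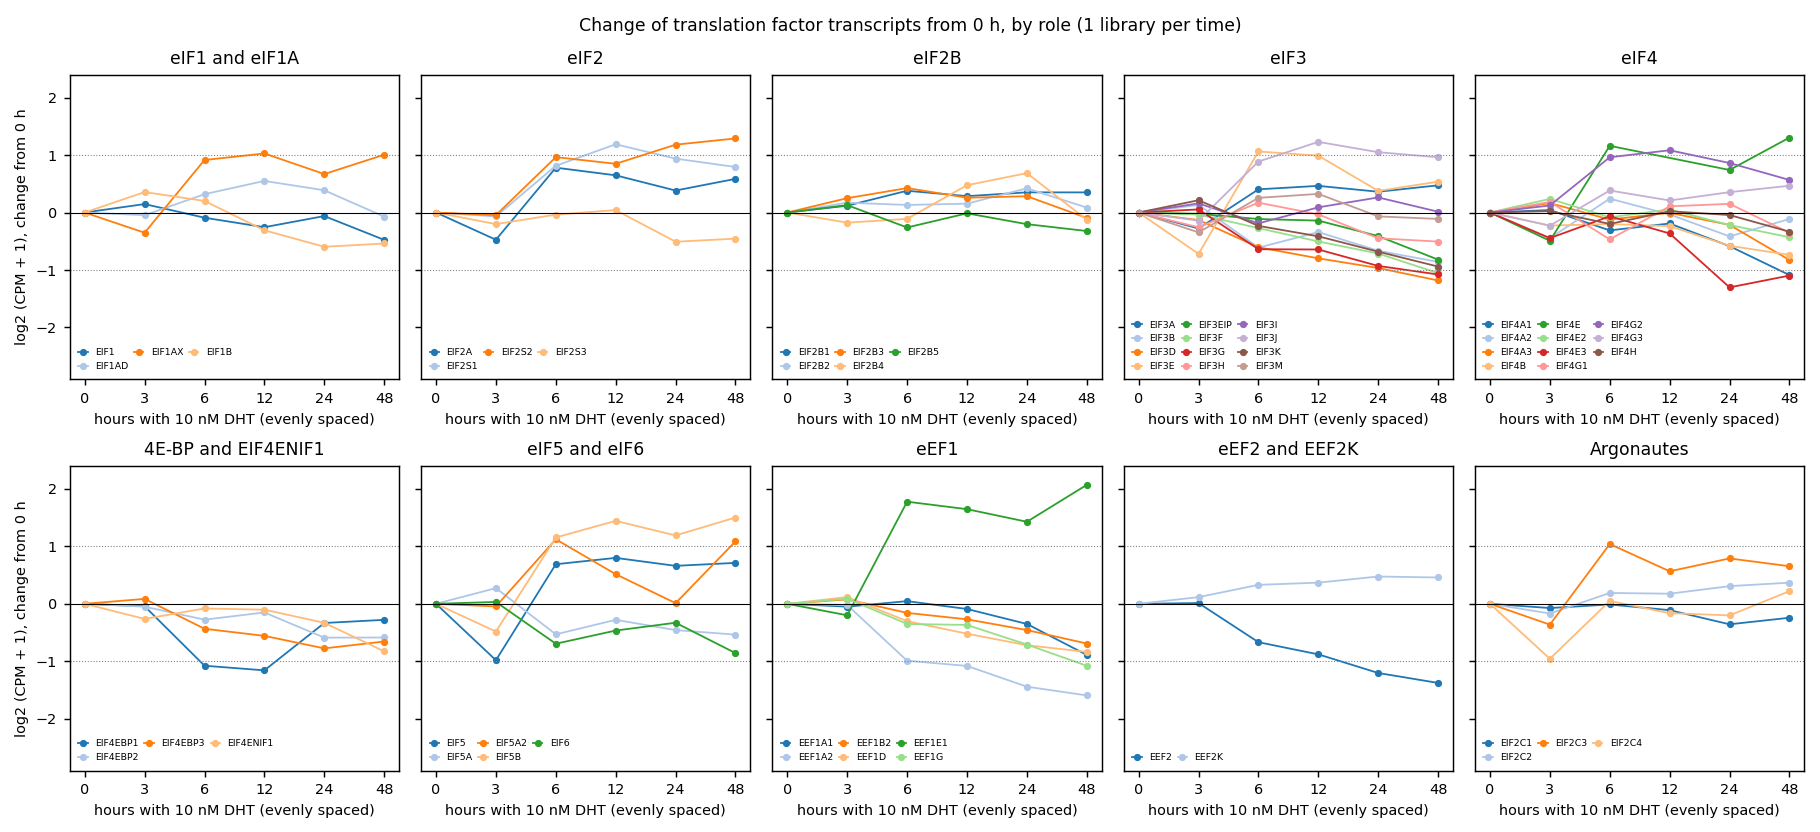
Change from 0 h (log2 of CPM + 1, y axis) of the 57 measured members in 10 role groups over hours with DHT (x axis, evenly spaced), with 1 point per library and dotted lines at 2-fold. Within the eIF3 and eIF4 panels lines part in both directions after 3 h, while EEF2 and 5 of the 6 eEF1 genes end below 0 and EEF1E1 ends at 2.07.

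Most of the reads of the members belonged to elongation factor genes, and EEF2 and EEF1A2 fell further at 48 h than any other member. The genes with EEF symbols held 2.63% of all listed counts at 0 h, 2.65% at 3 h, 1.83% at 6 h, 1.63% at 12 h, 1.32% at 24 h and 1.10% at 48 h. The initiation factor genes without EIF4E, that is all other members, held 1.10, 1.10, 1.09, 1.15, 1.03 and 0.888% at the same times. The lower share of the members at 48 h thus lay mostly in the elongation factors, and within them in EEF2.

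EEF2, the translocase of elongation, had 18198 CPM at 0 h, 18361 at 3 h, 11455 at 6 h, 9893 at 12 h, 7903 at 24 h and 7009.9 at 48 h. It fell at 24 and 48 h, reaching 0.385 times (0.382 to 0.388) its 0 h level at 48 h, and each library from 6 h on lay below the one before it. Its share of all listed counts was 0.701% at 48 h, against 1.82% at 0 h. The changes were -0.67 at 6 h, -1.20 at 24 h and -1.38 at 48 h, and after subtraction of the GC trend -0.24, -0.69 and -0.91, short of 2-fold. EEF2K, the kinase that phosphorylates and inhibits eEF2, was higher by less than 2-fold, with 83.9 CPM at 0 h, 91.0 at 3 h, 106 at 6 h, 109 at 12 h, 117 at 24 h and 116 at 48 h. The ratio of EEF2 to EEF2K counts was 60.6 at 48 h, against 217 at 0 h.

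Of the 6 eEF1 genes, EEF1A2 and EEF1G fell at 48 h, EEF1E1 rose, and the other 3 were lower by less than 2-fold. EEF1A2, the eEF1A form typical of muscle and nerve, had 2003 CPM at 0 h, 1973 at 3 h, 1008 at 6 h, 947 at 12 h, 737 at 24 h and 663 at 48 h. It fell at 12, 24 and 48 h and was 0.331 times (0.324 to 0.339) its 0 h level at 48 h, with each library from 6 h on below both earlier ones, a change of -1.59 (-1.08 after subtraction, still past 2-fold). EEF1A1, the form found in most tissues, had 3909.7 CPM at 0 h, 3778 at 3 h, 4037 at 6 h, 3673 at 12 h, 3067 at 24 h and 2111 at 48 h. Its change lay between -0.09 and 0.05 up to 12 h and was -0.89 at 48 h (-0.97 after subtraction), short of 2-fold. As scaled, EEF1A2 made up 23.9% of the reads of both genes at 48 h and 20% at 6 h, against 33.9% at 0 h. The transcripts differ in GC, with 66.4% for EEF1A2 and 46.1% for EEF1A1. After subtraction EEF1A2 was at -0.35, -0.74 and -1.08 at 6, 24 and 48 h, and EEF1A1 at -0.25, -0.41 and -0.97. These 2 genes are close relatives and EEF1A1 has many pseudogene copies, and the counting of shared reads is not known from the sources used here.

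The 3 subunits of eEF1B, which recharges eEF1A with GTP, were all lower at 48 h, EEF1G alone past 2-fold. EEF1G, the gamma subunit, had 1481 CPM at 0 h, 1575 at 3 h, 1161 at 6 h, 1147 at 12 h, 906 at 24 h and 701 at 48 h. It fell at 48 h to 0.473 times (0.462 to 0.485) its 0 h level. EEF1D, the delta subunit, had 515 CPM at 0 h, 559 at 3 h, 418 at 6 h, 359 at 12 h, 312 at 24 h and 288 at 48 h. EEF1B2, the catalytic beta subunit, had 131 CPM at 0 h, 138 at 3 h, 117 at 6 h, 108 at 12 h, 94.8 at 24 h and 80.5 at 48 h. All 3 were highest at 3 h and lowest at 48 h, with changes at 48 h of -1.08, -0.84 and -0.69, and of -0.70, -0.33 and -0.58 after subtraction. EEF1E1, also called AIMP3, is a scaffold of the complex of transfer RNA synthetases rather than an exchange factor, and it rose. It had 8.04 CPM at 0 h, 6.87 at 3 h, 30.0 at 6 h, 27.3 at 12 h, 23.3 at 24 h and 37.0 at 48 h, so all libraries from 6 h on lay above both earlier ones. It rose 4.59-fold (3.73 to 5.71) by 48 h, the largest change of any member (2.07). Its transcript is low in GC (36.9%), and the change was 0.86 after subtraction, below 2-fold.

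**Figure D2:**
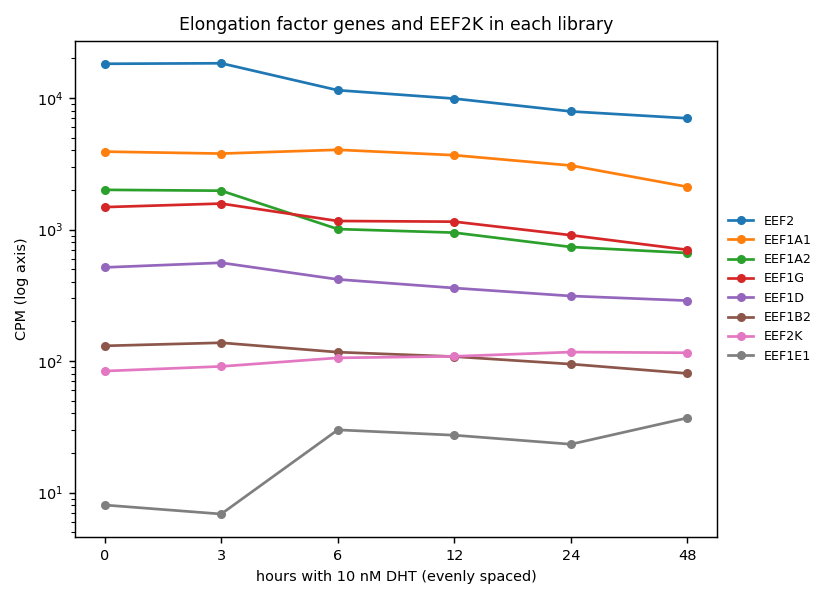
CPM (log axis) of the 8 genes with EEF symbols in each of 6 libraries over hours with DHT (x axis, evenly spaced), 1 point per library. EEF2 runs down to 7009.9 CPM at 48 h, against 18198 at 0 h, and EEF1E1 alone of the EEF genes other than EEF2K ends above its first point.

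The 3 subunits of eIF2, which carries the initiator transfer RNA, did not move together. EIF2S2, the beta subunit, had 31.5 CPM at 0 h, 30.5 at 3 h, 62.3 at 6 h, 57.5 at 12 h, 72.6 at 24 h and 78.4 at 48 h. It rose 2.49-fold (2.22 to 2.79) by 48 h, and its changes of 1.18 at 24 h and 1.29 at 48 h stayed past 2-fold after subtraction (1.06 and 1.12). EIF2S1, the alpha subunit on which the stress kinases act, had 70.7 CPM at 0 h, 67.4 at 3 h, 125 at 6 h, 162 at 12 h, 136 at 24 h and 123 at 48 h. It rose at 12 h (1.19, 0.38 after subtraction) and was at 0.94 and 0.79 at 24 and 48 h. EIF2S3, the gamma subunit that binds GTP, had 258 CPM at 0 h, 224 at 3 h, 251 at 6 h, 266 at 12 h, 181 at 24 h and 188 at 48 h, with changes of -0.51 and -0.45 at 24 and 48 h. As scaled, the gamma subunit was thus lower than at 0 h in both late libraries and the other two were higher. After subtraction EIF2S3 was at -0.83 and -0.88 at 24 and 48 h, while EIF2S1 was at 0.31 and -0.11, so that EIF2S2 alone stayed above 0 at both times. EIF2A, a separate protein that can deliver the initiator transfer RNA without eIF2, had 85.2 CPM at 0 h, 61.1 at 3 h, 147 at 6 h, 134 at 12 h, 111 at 24 h and 128 at 48 h, at most 0.78 above 0 h. Its changes of 0.78 at 6 h and 0.59 at 48 h turned to -0.14 and -0.25 after subtraction.

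The 5 subunits of eIF2B, the exchange factor of eIF2, stayed within 2-fold of 0 h at all times. At 24 h, 4 of the 5 were above 0 h, with changes of -0.20 to 0.68, and at 48 h they ran from -0.32 to 0.35. After subtraction the ranges were 0.05 to 1.01 and -0.05 to 0.23. EIF2B4, the delta subunit, had the largest of these, 0.68 at 24 h, and 1.01 after subtraction, which is past 2-fold. It had 62.4 CPM at 0 h, 55.1 at 3 h, 57.8 at 6 h, 87.2 at 12 h, 101 at 24 h and 57.2 at 48 h, so the 12 and 24 h libraries were the high ones. EIF2B3, the gamma subunit, was among the 3 members with the largest increase at 3 h, with 32.6 CPM at 0 h, 39.0 at 3 h, 44.1 at 6 h, 39.2 at 12 h, 39.9 at 24 h and 30.5 at 48 h.

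The 12 measured subunits of eIF3 lay on both sides of their 0 h level. At 48 h, 8 were below 0 h and 4 above it, over a range of -1.18 to 0.96 with a median of -0.66. The 3 that fell were EIF3D, EIF3G and EIF3F. EIF3D, a subunit that can itself bind caps of certain messages, had 569 CPM at 0 h, 519.5 at 3 h, 374 at 6 h, 327 at 12 h, 291 at 24 h and 250.2 at 48 h. EIF3G had 394 CPM at 0 h, 409 at 3 h, 252 at 6 h, 252 at 12 h, 206 at 24 h and 186 at 48 h. EIF3F had 209.7 CPM at 0 h, 205 at 3 h, 174 at 6 h, 148 at 12 h, 128 at 24 h and 100.5 at 48 h. All 3 were lowest at 48 h, and every library from 6 h on lay below both earlier ones. At 48 h EIF3D was 0.440 times (0.423 to 0.457), EIF3G 0.472 times (0.451 to 0.495) and EIF3F 0.479 times (0.450 to 0.510) its 0 h level. After subtraction they were at -0.89, -0.61 and -0.68, short of 2-fold. EIF3K had 284 CPM at 0 h, 329.6 at 3 h, 242 at 6 h, 213 at 12 h, 177 at 24 h and 148 at 48 h, a change of -0.94 at 48 h (-0.59 after subtraction). EIF3B and EIF3EIP (now EIF3L) were at -0.86 and -0.82, and at -0.45 and -0.75 after subtraction.

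EIF3J, a loosely bound subunit at the decoding site, rose at 12 and 24 h, the 1 subunit to rise at either time. It had 35.3 CPM at 0 h, 31.9 at 3 h, 66.1 at 6 h, 84.0 at 12 h, 74.1 at 24 h and 69.6 at 48 h. The change was 1.05 at 24 h and 0.96 at 48 h. Its transcript has 38.8% GC, and the changes were 0.39 and 0.00 after subtraction. EIF3E, another subunit, had 112 CPM at 0 h, 67.4 at 3 h, 234 at 6 h, 222 at 12 h, 145 at 24 h and 162 at 48 h. Its change was -0.72 at 3 h, the third lowest of the members there, and it rose at 6 h (1.06, -0.01 after subtraction). At 24 and 48 h it was at 0.38 and 0.54, with the sign turned after subtraction (-0.32 and -0.50). EIF3A, the largest subunit, was at 0.47 at 48 h and EIF3I at 0.01. EIF3H and EIF3M were at -0.51 and -0.11 at 48 h, and with their low GC of 40.2% and 38.0% at -1.27 and -1.18 after subtraction, past 2-fold. EIF3H had 302 CPM at 0 h, 252 at 3 h, 339.8 at 6 h, 295 at 12 h, 221 at 24 h and 212 at 48 h. EIF3M had 134 CPM at 0 h, 105 at 3 h, 160.2 at 6 h, 168 at 12 h, 128 at 24 h and 124 at 48 h. At 6 h the subtraction turned both, from 0.17 to -0.70 for EIF3H and from 0.25 to -0.84 for EIF3M. On the subtracted scale 10 of the 12 subunits lay below 0 at 48 h, EIF3J barely, with a median of -0.60, and EIF3A and EIF3I lay above it at 0.10 and 0.26. EIF3C and EIF3CL were not analysed here.

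Among the helicases, EIF4A1, the main eIF4A of the cap complex, had 904 CPM at 0 h, 931 at 3 h, 728 at 6 h, 792 at 12 h, 602 at 24 h and 425 at 48 h. It fell at 48 h to 0.470 times (0.456 to 0.484) its 0 h level (-1.09, -0.92 after subtraction). EIF4A2, its close relative, had 289 CPM at 0 h, 212 at 3 h, 341 at 6 h, 282 at 12 h, 216 at 24 h and 267 at 48 h, with -0.42 at 24 h and -0.11 at 48 h. After subtraction EIF4A2 was at -0.92 and -0.82. EIF4A3, which works in the exon junction complex rather than at the cap, had 141 CPM at 0 h, 158 at 3 h, 129 at 6 h, 140.0 at 12 h, 121 at 24 h and 78.8 at 48 h. Its lowest value was that at 48 h (-0.83, -0.58 after subtraction). EIF4B, a protein that stimulates the helicase, had 683 CPM at 0 h, 584 at 3 h, 595 at 6 h, 579 at 12 h, 457 at 24 h and 409.7 at 48 h, with -0.74 at 48 h (-0.78 after subtraction), and its relative EIF4H was at -0.33 there (-0.03). Some reads of the related genes EIF4A1 and EIF4A2, with 49.6% and 40.6% GC, may be shared.

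Of the 3 cap-binding genes, EIF4E rose and EIF4E3 fell. EIF4E, the cap-binding protein itself, had 5.39 CPM at 0 h, 3.54 at 3 h, 13.3 at 6 h, 9.67 at 24 h and 14.8 at 48 h, the 12 h value being left out. It rose 2.74-fold (2.09 to 3.63) by 48 h, with a count of 71 at 0 h, and its change of 1.30 was 0.36 after subtraction. EIF4E2, a homologue linked to repression, had 81.8 CPM at 0 h, 96.6 at 3 h, 77.1 at 6 h, 84.9 at 12 h, 70.2 at 24 h and 60.5 at 48 h and stayed within 2-fold. EIF4E3, another homologue, had 14.6 CPM at 0 h, 10.5 at 3 h, 13.9 at 6 h, 11.2 at 12 h, 5.34 at 24 h and 6.31 at 48 h. It fell at 24 h to 0.365 times (0.286 to 0.464) its 0 h level (-1.30, -1.06 after subtraction) and was still past 2-fold at 48 h (-1.10, -0.80 after subtraction).

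Of the eIF4G scaffolds, EIF4G2, also called DAP5, which lacks the part that binds eIF4E, was the 1 that rose. It had 774 CPM at 0 h, 842 at 3 h, 1507 at 6 h, 1640.2 at 12 h, 1406 at 24 h and 1146 at 48 h. It rose at 12 h (1.08, 0.73 after subtraction) and was at 0.57 at 48 h (0.34). EIF4G1, the main scaffold of the cap complex, had 1219 CPM at 0 h, 1385 at 3 h, 881 at 6 h, 1313 at 12 h, 1353 at 24 h and 956 at 48 h. EIF4G3 had 101 CPM at 0 h, 86.4 at 3 h, 133 at 6 h, 117 at 12 h, 129.8 at 24 h and 140.4 at 48 h. As scaled, all libraries from 6 h on had more EIF4G2 than both earlier libraries, and EIF4G1 was at or below its 3 h level throughout. The ratio of EIF4G2 to EIF4G1 counts was 1.71 at 6 h and 1.20 at 48 h, against 0.635 at 0 h. These transcripts have 44.5% and 57.4% GC. After subtraction EIF4G1 was at 0.18, -0.14, 0.38, 0.59 and 0.08 at 3, 6, 12, 24 and 48 h. EIF4G2 was at 0.25, 0.53, 0.73, 0.69 and 0.34 on that scale.

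The 4E-BP proteins bind eIF4E and keep it from eIF4G until mTOR phosphorylates them. EIF4EBP1 had 127 CPM at 0 h, 123 at 3 h, 59.6 at 6 h, 56.3 at 12 h, 100.4 at 24 h and 104 at 48 h. It fell at 6 and 12 h (-1.08 and -1.16; -0.46 and -0.68 after subtraction) and was at -0.33 and -0.28 at 24 and 48 h, so the 6 and 12 h libraries were the low ones. After subtraction the late values turned to 0.34 and 0.23. EIF4EBP2 had 109 CPM at 0 h, 106 at 3 h, 90.2 at 6 h, 98.4 at 12 h, 72.4 at 24 h and 72.5 at 48 h. EIF4EBP3 had 58.6 CPM at 0 h, 62.2 at 3 h, 43.1 at 6 h, 39.5 at 12 h, 33.8 at 24 h and 36.8 at 48 h. Both were lower in the 24 and 48 h libraries than in the 0 and 3 h libraries, by less than 2-fold. EIF4EBP3 overlaps the gene ANKHD1 on the same strand, and reads of the joint transcript cannot be told apart here. EIF4ENIF1, which carries eIF4E into the nucleus and into storage bodies, was at -0.83 at 48 h (-0.62 after subtraction).

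In the last steps of initiation EIF5B, the GTPase of subunit joining, had 49.0 CPM at 0 h, 34.8 at 3 h, 110.3 at 6 h, 135 at 12 h, 113 at 24 h and 141 at 48 h. It rose at 6, 12, 24 and 48 h, 2.87-fold (2.62 to 3.14) by 48 h, and with a transcript of 38.6% GC its change of 1.5 was 0.52 after subtraction. EIF5, which triggers GTP hydrolysis by eIF2, had 115 CPM at 0 h, 57.6 at 3 h, 186 at 6 h, 200.3 at 12 h, 182 at 24 h and 189 at 48 h. At 3 h it was the lowest member relative to 0 h (-0.98, -0.78 after subtraction), and from 6 h on it lay above both early libraries without reaching 2-fold over 0 h. Against the mean of 0 and 3 h it was past 2-fold at all of 6, 12, 24 and 48 h. Its changes from 0 h of 0.66 at 24 h and 0.71 at 48 h were 0.28 and 0.20 after subtraction. EIF6, which keeps the ribosomal subunits apart, had 191 CPM at 0 h, 195 at 3 h, 118 at 6 h, 138 at 12 h, 152 at 24 h and 105 at 48 h, with -0.86 at 48 h (-0.40 after subtraction).

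EIF5A, the factor that carries hypusine, an amino acid made from the polyamine spermidine, had 294 CPM at 0 h, 355 at 3 h, 203 at 6 h, 242 at 12 h, 214 at 24 h and 202 at 48 h. It was highest at 3 h and below 0 h in all later libraries, the change at 48 h being -0.54 (-0.10 after subtraction). EIF5A2, its rarer copy, had 2.88 CPM at 0 h, 2.76 at 3 h, 7.46 at 6 h, 4.55 at 12 h, 2.91 at 24 h and 7.24 at 48 h. It rose at 6 and 48 h (1.12 and 1.09) but rests on 38 counts at 0 h, and after subtraction the signs turned (-0.33 and -0.45). Among the scanning factors, EIF1, which guards start codon choice, had 545 CPM at 0 h, 603 at 3 h, 512 at 6 h, 456 at 12 h, 522 at 24 h and 391 at 48 h. Its copy EIF1B had 29.5 CPM at 0 h, 38.0 at 3 h, 34.1 at 6 h, 23.6 at 12 h, 19.2 at 24 h and 20 at 48 h. EIF1B had the largest increase of any member at 3 h (0.36, 0.53 after subtraction) and was lower than at 0 h from 12 h on. EIF1AX, which binds the small subunit during scanning, had 9.86 CPM at 0 h, 7.51 at 3 h, 19.5 at 6 h, 21.1 at 12 h, 16.3 at 24 h and 20.8 at 48 h. It rose at 12 h and 48 h (1.03 and 1.0), and with 35.1% GC it was at -0.07 and -0.43 after subtraction. EIF1AD, named for a domain it shares with eIF1A, was at -0.07 at 48 h (0.08 after subtraction).

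The table also lists 4 Argonaute genes under their older EIF2C symbols. They carry small RNAs to their targets and are not initiation factors. EIF2C3 (now AGO3) had 22.2 CPM at 0 h, 17.1 at 3 h, 46.8 at 6 h, 33.4 at 12 h, 39.1 at 24 h and 35.6 at 48 h and rose at 6 h (1.04, 0.60 after subtraction). EIF2C4 (AGO4) had 39.3 CPM at 0 h, 19.8 at 3 h, 40.7 at 6 h, 35.0 at 12 h, 34.0 at 24 h and 45.9 at 48 h. Its low value was that at 3 h (-0.96, -0.82 after subtraction). EIF2C1 (AGO1) had 166 CPM at 0 h, 158 at 3 h, 164 at 6 h, 154 at 12 h, 129 at 24 h and 140.0 at 48 h. EIF2C2 (AGO2), the slicing member, had 55.2 CPM at 0 h, 49.0 at 3 h, 63.1 at 6 h, 62.5 at 12 h, 68.6 at 24 h and 71.6 at 48 h. The change farthest from 0 was -0.36 at 24 h for EIF2C1 and 0.37 at 48 h for EIF2C2 (-0.39 and 0.34 after subtraction).

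The members' changes followed the GC content of their transcripts. Across the members with a GC value, Pearson's r of the change with GC was 0.49 at 3 h, -0.85 at 6 h, -0.76 at 12 h, -0.61 at 24 h and -0.72 at 48 h, over 57 members (56 at 12 h) that share the same 6 libraries. Over all measured genes it was 0.23, -0.74, -0.62, -0.51 and -0.56. At 6 h, 19 of the 21 members under 45% GC lay above 0 h, with a median of 0.78, and 0 of the 10 members of 55% or more, with a median of -0.62. At 48 h these medians were 0.57 and -0.85, and that of the 26 members in between was -0.45. The part of GC-dependent library preparation in these changes was not tested. The calls of EIF2S2 at 24 and 48 h, EIF4E3 at 24 h and EEF1A2 at 48 h were the ones that remained past 2-fold after it was subtracted, among 7 calls at 6 h, 8 at 12 h, 7 at 24 h and 14 at 48 h.

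**Figure D3:**
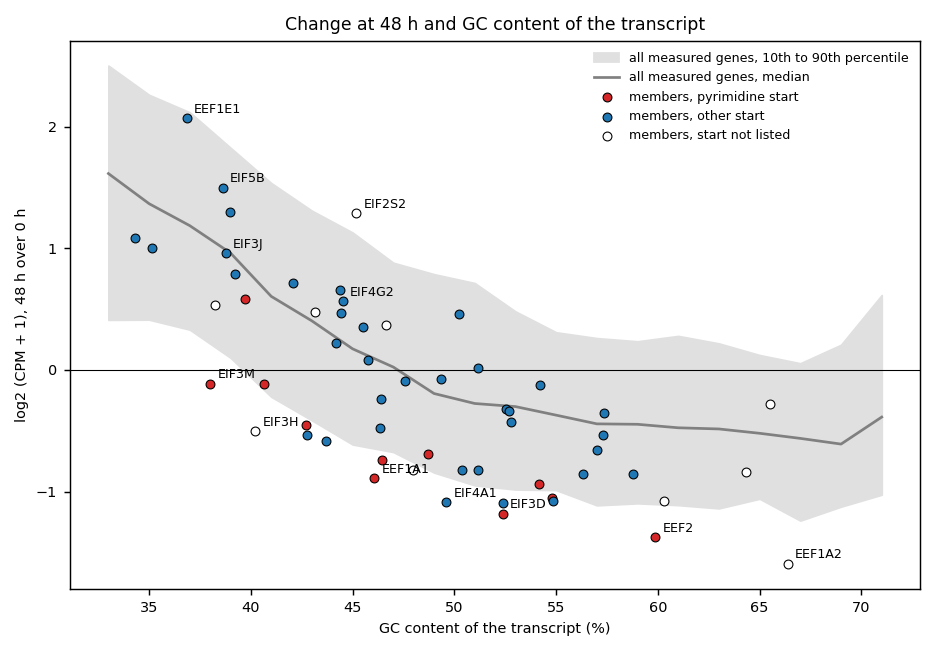
Change at 48 h (log2, y axis) against the GC content of the transcript (%, x axis) for 57 members (points; red with a pyrimidine start, blue with another start, white with no listed start), over the median and the 10th to 90th percentile of all measured genes in steps of GC (grey line and band). Of the 57, 41 lie inside the band, EIF2S2 alone lies above it, and 15 lie below it, among them EEF1A1, EEF1A2, EEF2, EIF3D, EIF3H, EIF3M and EIF4A1.

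**Figure D4:**
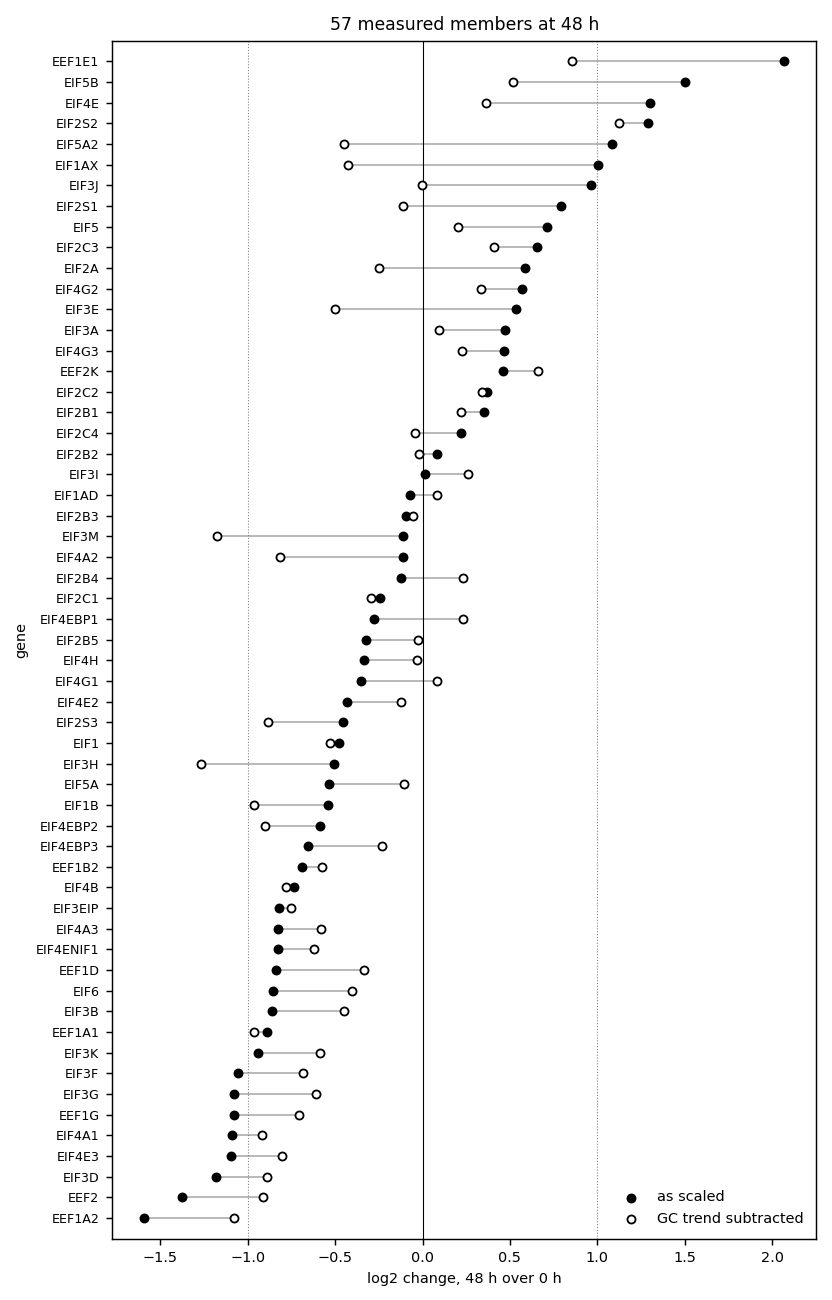
Change at 48 h (log2, x axis) of each of 57 measured members (rows, in order of the change), as scaled (filled points) and with the GC trend subtracted (open points), with dotted lines at 2-fold. The ends of the order draw in, EEF1E1 to 0.86 and EEF2 to -0.91, and EIF3M and EIF3H move out to -1.18 and -1.27.

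The members with the pyrimidine starts printed above were mostly lower than at 0 h late in the course, on both scales. At 6 h they lay on both sides as scaled, 4 above 0 h and 7 below, from -0.67 for EEF2 to 0.78 for EIF2A. Of 47 measured members with a listed promoter, 11 (23.4%) hold a start of C and at least 4 more pyrimidines, beside 7.41% of 9559 measured genes and 4.07% of 35116 listed starts. A gene was counted if any of its listed starts held the run. The share of starts is per single start and is thus another unit. The 10 members without an entry are EEF1A2, EEF1D, EIF2C2, EIF2S2, EIF3A, EIF3E, EIF3EIP, EIF3G, EIF3H and EIF4EBP1. Of these, EEF1D, EIF2C2, EIF3E, EIF3H and EIF4EBP1 lie on chromosome 8. No starts of that chromosome were among the listed ones, so its genes are absent from these counts and shares. At 48 h, 10 of the 11 were below 0 h with a median of -0.74, EIF2A being the exception at 0.59, and the 36 members with another start had a median of -0.11, 20 of them below 0 h. With the GC trend subtracted, all 11 were below 0 at both late times. Their medians were -0.61 at 24 h and -0.82 at 48 h, beside 0.12 and -0.05 for the other 36. EIF3M, EEF1A1 and EEF2 had the lowest of these values at 48 h (-1.18, -0.97 and -0.91), and EIF2A had the highest (-0.25).

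Low values at 48 h were not particular to the members. Of 46 measured ribosomal protein genes with such a start, 46 were below 0 h at 48 h, with a median of -1.01, and 24 were past 2-fold. After subtraction 44 of 45 with a GC value were below 0, with a median of -0.75. The 19 ribosomal protein genes with another start had a median of -0.68 on that scale, 16 of them below 0. The 620 other measured genes with such a start that are not ribosomal protein genes had a median of -0.12 at 48 h after subtraction, 362 of them below 0, beside 0.01 for the 8429 with another start. The division by start was made with the values known, is a description of these libraries, and was given no test. An annotated start need not be the start used in LNCaP cells, and a run of pyrimidines there does not show that a message is regulated as TOP messages are. EEF1G, EIF4A1 and EIF4E3, whose listed starts hold no such run, and EEF1A2 and EIF3G, with no listed start, were also among the 8 members that fell at 48 h.

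**Figure D5:**
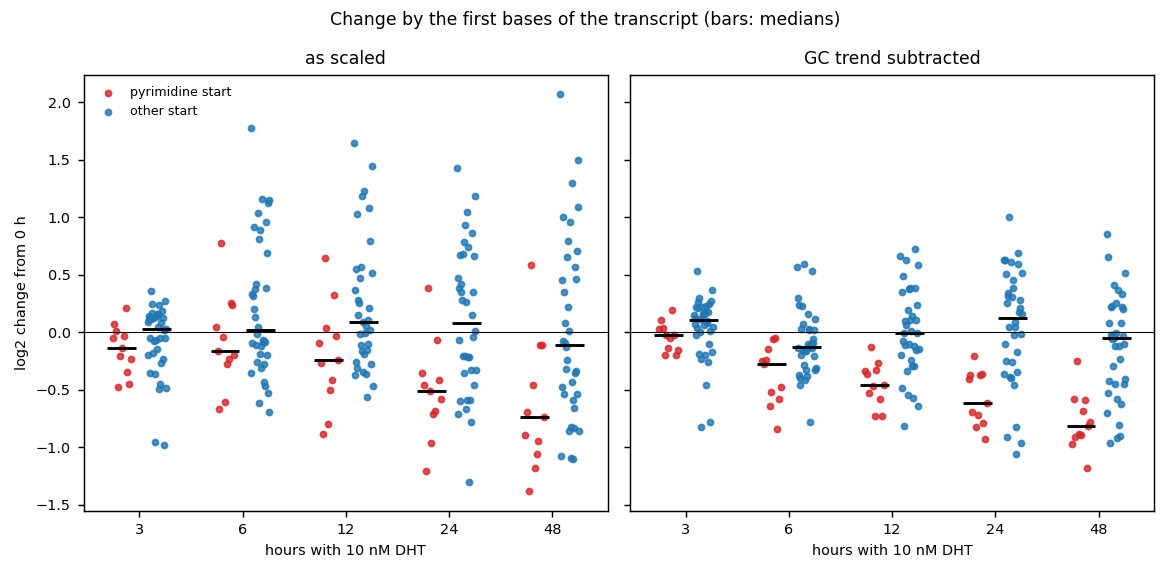
Change from 0 h (log2, y axis) at 3, 6, 12, 24 and 48 h with DHT (x axis) of the 11 members with a pyrimidine start (red) and the 36 with another listed start (blue), as scaled (left) and with the GC trend subtracted (right); bars are medians. On the right the red median reaches -0.82 at 48 h, against -0.05 for the blue.

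Short motifs were also counted in the 250 bases before the listed starts, on both strands. A gene was counted if any of its windows held the motif, whereas the shares of windows are per single window. AGAACA, the core of a half-site bound by steroid hormone receptors, was found for 8 of 47 members (17%), beside 11% of 9559 measured genes and 12.4% of 35116 windows. The 8 were EEF1B2, EEF1E1, EIF2S1, EIF4A3, EIF4E3, EIF4EBP3, EIF4G1 and EIF4G2. CACGTG, the E-box bound by MYC with its partner MAX, was found for 12 of 47 (25.5%), beside 11.4% of measured genes and 6.34% of windows, among them EIF4E, EIF4A3, EIF4B, EIF4G1 and EIF3F. EIF4A3, EIF4EBP3 and EIF4G1 held both motifs, and whether their sites share bases was not checked. Members holding either motif included genes that rose, genes that fell and genes within 2-fold.

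Neighbouring libraries were also compared as scaled, without subtraction of the GC trend and without a count over all genes. Between 3 and 6 h the largest shifts of members were EEF1E1 (1.98), EIF3E (1.78), EIF5 (1.67) and EIF4E (1.65) upward and EIF4EBP1 (-1.03) and EEF1A2 (-0.97) downward, as log2 of (CPM + 1) at 6 h over 3 h. After subtraction the changes of these genes from 0 h at 3 and 6 h lay closer together. They were 0.15 and 0.57 for EEF1E1, -0.40 and -0.01 for EIF3E, -0.78 and 0.02 for EIF5, and -0.19 and 0.16 for EIF4E. For EIF4EBP1 they were 0.03 and -0.46, and for EEF1A2 0.06 and -0.35. Between 24 and 48 h the largest were EIF2B4 (-0.81), EIF4A3 (-0.61) and EEF1A1 (-0.54) downward and EIF5A2 (1.07) and EEF1E1 (0.64) upward. The counts are shares of a library, so a loss of a message per cell and a gain of other messages cannot be told apart, nor can fewer cells of a kind and less RNA per cell.

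Genes that act on these factors were counted by list, beside 10.5% of all measured genes higher and 10.8% lower at 24 h, and 15% and 7.33% at 48 h. Of 20 genes of mTOR signalling and translation control, 4 rose and 1 fell at 24 h, with a median of -0.12. After subtraction the median was 0.13, but without GBL, TSC1, TSC2 and LARP1, which have no GC value. As scaled, TSC1, TSC2 and LARP1 were at -0.06, -0.08 and -0.69. The medians thus rest on different genes, and their difference is not that of the subtraction alone. FRAP1 (now MTOR), the kinase itself, had 181 CPM at 0 h, 221 at 3 h, 307 at 6 h, 439.8 at 12 h, 766 at 24 h and 646 at 48 h. Its change was 2.07 at 24 h and 2.31 after subtraction. Its partner RICTOR and RPS6KA3, 1 of the S6 kinase genes listed, rose as well at 24 h (1.61 and 1.71, with 0.78 and 1.09 after subtraction). The S6 kinase genes RPS6KB1, RPS6KB2 and RPS6KA1 were within 2-fold there (0.72, 0.39 and -0.42, with -0.08, 0.97 and 0.05 after subtraction). DEPDC6 (now DEPTOR), an inhibitor of mTOR, fell (-1.36, -1.45 after subtraction). The remaining gene that rose was PDCD4 (1.05, 0.40 after subtraction). KIAA1303 (now RPTOR) was at -0.52 (-0.01 after subtraction), and GBL (now MLST8), which has no GC value, was at -0.89. Of 10 genes of eIF2 kinases and phosphatase subunits, 3 rose and 0 fell at 24 h and at 48 h: DNAJC3, an inhibitor of the kinase PERK, with 2.52 at 24 h, EIF2AK3, which encodes PERK, with 1.81, and PPP1R15B, a phosphatase subunit, with 1.41. After subtraction these 3 were at 1.94, 1.64 and 1.15 at 24 h. ATF4 of the same list was at 0.66 at 24 h, and past 2-fold only after subtraction (1.07).

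Of 8 measured genes of the poly(A) tail, helicases and auxiliary initiation, DHX29 and PAIP2 rose at 24 h (1.35 and 1.05) and the poly(A)-binding protein gene PABPC4 fell (-1.03), each within 2-fold after subtraction (0.83, 0.77 and -0.73). DDX3X, a helicase, was at 0.86 (0.50). Of 8 termination and ribosome rescue genes 0 were past 2-fold at 24 and 48 h, with medians of 0.66 and 0.46, and of 0.25 and -0.08 after subtraction. Of 9 genes that make hypusine on eIF5A or diphthamide on eEF2, DPH4 (now DNAJC24) and DPH3 rose at 24 h (1.13 and 1.02, from 4.17 and 2.88 CPM at 0 h), and DPH5 and DPH1, both of diphthamide synthesis, were at -0.59 and -0.44. After subtraction DPH4 and DPH3 were within 2-fold (0.69 and 0.39), and DPH5 and DPH1 were at -0.85 and 0.07. Of 10 mitochondrial factors 0 were past 2-fold at 24 h, and at 48 h GFM1 rose (1.06) and TUFM, the mitochondrial counterpart of eEF1A, fell (-1.02), both within 2-fold after subtraction (0.44 and -0.58). The synthetase scaffolds SCYE1 (now AIMP1) and JTV1 (AIMP2), partners of EEF1E1, were at 1.30 and -0.97 at 48 h, the first past 2-fold as scaled and neither after subtraction (0.77 and -0.71).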

How the data were processed

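Total RNA of LNCaP cells was sequenced on an Illumina GAIIx, per the labels' protocols, in 6 libraries (1 non-treated, 5 with 10 nM DHT). The authors deposited 1 table with a whole-number read count and an RPM value per RefSeq transcript and library. The build was hg19, per the submitters' processing notes. Which aligner was used, how shared reads were counted and whether strand was used is not given in the sources used here. After 50 repeated lines of 18051 were dropped, 18001 transcripts gave 17990 genes, counts of several transcripts of 1 symbol being summed. The deposited counts were scaled to the sum of listed counts (CPM) and compared on log2 with 1 CPM added, in Python 3.11.15 with pandas 2.3.3; the authors' RPM values served as an alternative scaling.

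GC content came from GENCODE release 29 transcripts for 93.49% of measured genes and all 57 measured members; the trend was a lowess curve (statsmodels 0.14.6, span 0.3), fitted at 12 h on genes outside chromosome 4 and distal chromosome 15. Ratios carry 95% exact conditional binomial intervals (scipy 1.17.1) that cover counting error only, as reads carry no molecular identifiers. TMM factors came from edgeR 4.0.16. The steps were tested on simulated data. Starts were matched by symbol to RefSeq for 47 of 57 members. Values in every library are given for members past 2-fold at any time, the 8 largest changes each way at 24 and 48 h, the 3 largest each way at 3, 6 and 12 h, and paralog groups. Values of EEF1B2, EIF2A, EIF2S3, EIF2B4, EIF3H, EIF3K, EIF3M and EIF4B were added after they were seen. Of each companion list at most 4 genes were named by the size of their change at 24 h. PDCD4, KIAA1303, GBL, RPS6KB1, RPS6KB2, RPS6KA1 and ATF4 were added after they were seen. TSC1, TSC2 and LARP1 were named for their lack of a GC value. The members and all lists were chosen with earlier results of these data known, and the division by start and the motifs after the values were seen.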

Additional observations from a re-analysis of the deposited data

Results flagged for a closer look

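EIF5, which triggers GTP hydrolysis on eIF2, moved in opposite directions at the early and the late times. Its log2 change from 0 h was -0.98 at 3 h, against 0.66 at 24 h and 0.71 at 48 h. With the GC trend subtracted these were -0.78 at 3 h, against 0.28 at 24 h and 0.20 at 48 h. Each of these times had 1 library, all are set against the same 0 h library, and the difference was not tested.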

How the results depend on the processing

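No paired analysis was possible because each group had 1 library, and for the same reason no replicate could be left out. Scaling by the authors' RPM denominator, by median-of-ratios factors or by TMM gave 2 lower members at 6 h, EEF1A2 being the one added. Median-of-ratios factors moved the median change of the members to -0.14 at 6 h and -0.11 at 24 h, and TMM moved it to -0.07 at 24 h. TMM also moved the median of all genes at 24 h to 0.04. At 48 h TMM gave 7 higher and 7 lower members at 2-fold, and the mean of 0 and 3 h as reference gave 8 and 8. With the GC trend subtracted, members past 2-fold numbered 0 higher and 0 lower at 6 h and at 12 h, 2 and 1 at 24 h, and 1 and 3 at 48 h, with medians of -0.16 at 6 h, -0.12 at 12 h and -0.10 at 24 h. Among changes past 2-fold, that subtraction reversed EIF3E at 6 h (-0.01), EIF5A2 at 6 and 48 h (-0.33 and -0.45) and EIF1AX at 12 and 48 h (-0.07 and -0.43); over all members it turned the sign of 9 to 20 changes per time. A threshold of 1.5-fold gave 3 lower members at 3 h, 13 higher and 7 lower at 6 h, 10 and 5 at 12 h, 11 and 14 at 24 h, and 11 and 20 at 48 h. With both changes together, added after seeing the data, there were 2 lower at 3 h, 2 higher and 4 lower at 6 h, 4 higher and 6 lower at 12 h, 7 and 12 at 24 h, and 3 and 19 at 48 h. Calls near 2-fold were lost for EIF1AX at 48 h under the authors' denominator and at 12 h under median-of-ratios factors, EIF2C3 and EIF3E at 6 h under median-of-ratios factors and TMM, EIF3F at 48 h under TMM, and EIF4E3 at 48 h against the mean of 0 and 3 h. Calls were gained for EIF2S1 at 24 h under median-of-ratios factors and TMM, for EIF3J at 48 h under TMM, for EIF2B4 at 24 h and EIF3H and EIF3M at 48 h with the GC trend subtracted, and, against the mean of 0 and 3 h, for EIF5 at 6, 12, 24 and 48 h, EIF1AX at 6 h, EIF3E at 12 h and EIF3J and EIF3K at 48 h. A stricter start of C and at least 6 more pyrimidines, also added after seeing the data, left 9 members with a median of -0.89 at 48 h (-0.88 after subtraction). The causes of these shifts were not tested. One library per time, a single 0 h library without later untreated controls, and 38 to 109 counts for EIF5A2 limit what the values can show.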
